A study of Mus musculus with 14 samples.

Results

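The genes described here are 40 ribosome biogenesis factors, nucleolar proteins that transcribe, modify, cut and fold ribosomal RNA (rRNA) and assemble it into subunits. They were chosen by name from the deposited gene table, which has values for 48363 genes, and all 40 had enough reads to be tested. They comprise 4 genes of RNA polymerase I (Pol I) transcription, 4 of box C/D and 4 of box H/ACA small nucleolar ribonucleoproteins (snoRNPs), 3 abundant nucleolar proteins, 13 factors of the small subunit and 12 of the large subunit. They lie on 16 chromosomes, with at most 6 on any one of them.

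The measurements are RNA-seq of regulatory T cells (Tregs), CD4+ T cells that restrain immune responses and depend on the transcription factor FOXP3. Cells were isolated fresh from untreated mice, from spleen pooled with inguinal, axillary and brachial lymph nodes, and were sorted on a FOXP3-YFP reporter. The 5 cKO libraries are from Tregs in which both miR-15/16 clusters are flanked by loxP sites (miR-15/16 fl/fl) and Foxp3-Cre, a YFP-tagged Cre made from the endogenous Foxp3 locus, deletes them once FOXP3 is made. The 4 WT libraries are bulk Tregs with both clusters intact (miR-15/16 wt/wt) that carry Foxp3-Cre too. The 2 CD25lo and 3 CD25hi libraries are Tregs of that same WT genotype sorted into bins of low and high CD25, the IL-2 receptor alpha chain. All groups thus share Foxp3-Cre and its YFP reporter, and deletion in cKO cells is limited to cells that have expressed FOXP3. The study states that its mice were matched for age and sex, and gives ages for its experiments in general but not for the sequenced groups. It calls its cKO and WT samples biological replicates, in larger numbers than the libraries used here. The labels do not tie libraries to single mice, so the p-values measure the spread between these libraries.

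In the nucleolus, Pol I transcribes a long precursor rRNA, box C/D snoRNPs add 2'-O-methyl groups and box H/ACA snoRNPs convert uridines to pseudouridines. A large particle built around U3 snoRNA then folds and cuts the precursor of the small subunit, while a separate set of factors matures the large subunit. Output of this pathway rises when lymphocytes are activated and grow, and MYC is a known activator of many of its genes.

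Between 30055573 and 35226685 reads fell in genes per library (median 31942230), and values are normalized counts, which are reads divided by a size factor of the library. Since levels are relative to all other RNA, fewer cells of a type and less RNA per cell cannot be told apart in these bulk samples. Longer transcripts also gather more reads, so levels are not compared between genes. Foxp3 was at 17804 to 19652 normalized counts in cKO, 18053 to 21324 in WT, 14546 to 16298 in CD25lo and 21788 to 24370 in CD25hi libraries, and all 12 Treg markers were detected in every library. Il2ra, which encodes CD25, averaged 14854 ± 244 normalized counts in CD25lo and 40165 ± 889 in CD25hi libraries (SD, n = 2 and 3), as the gates are labelled. Il2ra was also lower in cKO libraries, at 15512 ± 1685 against 26037 ± 2160 in WT (SD, n = 5 and 4, log2 fold change -0.75, limma adjusted p = 1.5e-05). By Xist, all 5 cKO libraries and WT replicate 3 were female and the other 8 were male, so a fit with a term for sex compares the cKO libraries with WT replicate 3 alone. A list of 22 genes of the immediate early and stress response averaged 12.35 to 13.66 on the log2 scale in cKO, 11.88 to 13.70 in WT, 11.74 to 12.22 in CD25lo and 11.67 to 11.85 in CD25hi libraries, with WT replicate 4 the lowest of the bulk libraries. Summed over 12 myeloid markers, the level was 1282 to 4969 normalized counts in cKO and 1717 to 7595 in WT libraries, and 1854 to 2038 in CD25lo and 1318 to 1967 in CD25hi libraries. Of the 10 myeloid markers with enough reads limma called none in either comparison, and their median log2 fold change was -1.48 for cKO over WT and 0.92 for CD25lo over CD25hi. Of the 12, S100a8 and S100a9 were at 0 in 13 and 12 of the 14 libraries, whereas Csf1r (128 to 2126 normalized counts in cKO, 553 to 3159 in WT, 216 to 659 in CD25lo and 102 to 367 in CD25hi), Cd68, Adgre1 and Cst3 were present in all. The summed level of 10 B cell markers was 19659 to 26009 in cKO and 15130 to 20588 in WT libraries, and 13600 to 14024 in CD25lo and 13730 to 14958 in CD25hi libraries, most of it from Ighm. Of the 8 B cell markers tested, Ighm was higher in cKO Tregs (log2 fold change 0.39, limma adjusted p = 0.0240) and none was called in CD25lo Tregs. Cd79b (470 to 776 in cKO, 163 to 438 in WT) and Cd22 (392.1 to 509 in cKO, 296 to 366 in WT) were higher in cKO libraries without overlap, as were 4.92% of all tested genes. Cd79a lay mostly the other way (9.4 to 29.0 in cKO, 27.7 to 52.1 in WT). Ebf1 and Ms4a1 were at 0 in 12 and 9 libraries. None of 6 CD8 and NK markers or 2 erythroid markers tested was called by limma (medians 0.14 and -1.7 for cKO over WT, 0.91 and -0.59 for CD25lo over CD25hi). The part of sex, of handling and of other cells in the values below was not tested beyond the alternatives given beside them.

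The 40 genes stood lower as a set in cKO than in WT Tregs, and lower in CD25lo than in CD25hi Tregs. Their summed level was 134999, 134870, 128905, 135619 and 139158 normalized counts in cKO replicates 1 to 5, against 151278, 149513, 150324 and 149769 in WT replicates 1 to 4. It came to 136058 and 132670 normalized counts in CD25lo replicates 1 and 2, against 155947, 166937 and 163931 in CD25hi replicates 1 to 3. Every cKO library was below every WT library and every CD25lo library below every CD25hi library. Sex nearly follows the cKO and WT groups. The summed myeloid and B cell levels given above overlapped between them, though Ighm was called higher in cKO Tregs and the myeloid markers had a median of -1.48. The part of sex and of other cells in the lower cKO sums was not tested. The mean sum differed by -10.3% between cKO and WT and by -17.2% between CD25lo and CD25hi. Nucleolin (Ncl) alone supplied 20.3% to 25.8% of the sum in each library, and without it the differences were -10.5% and -14.8%.

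**Figure D1:**
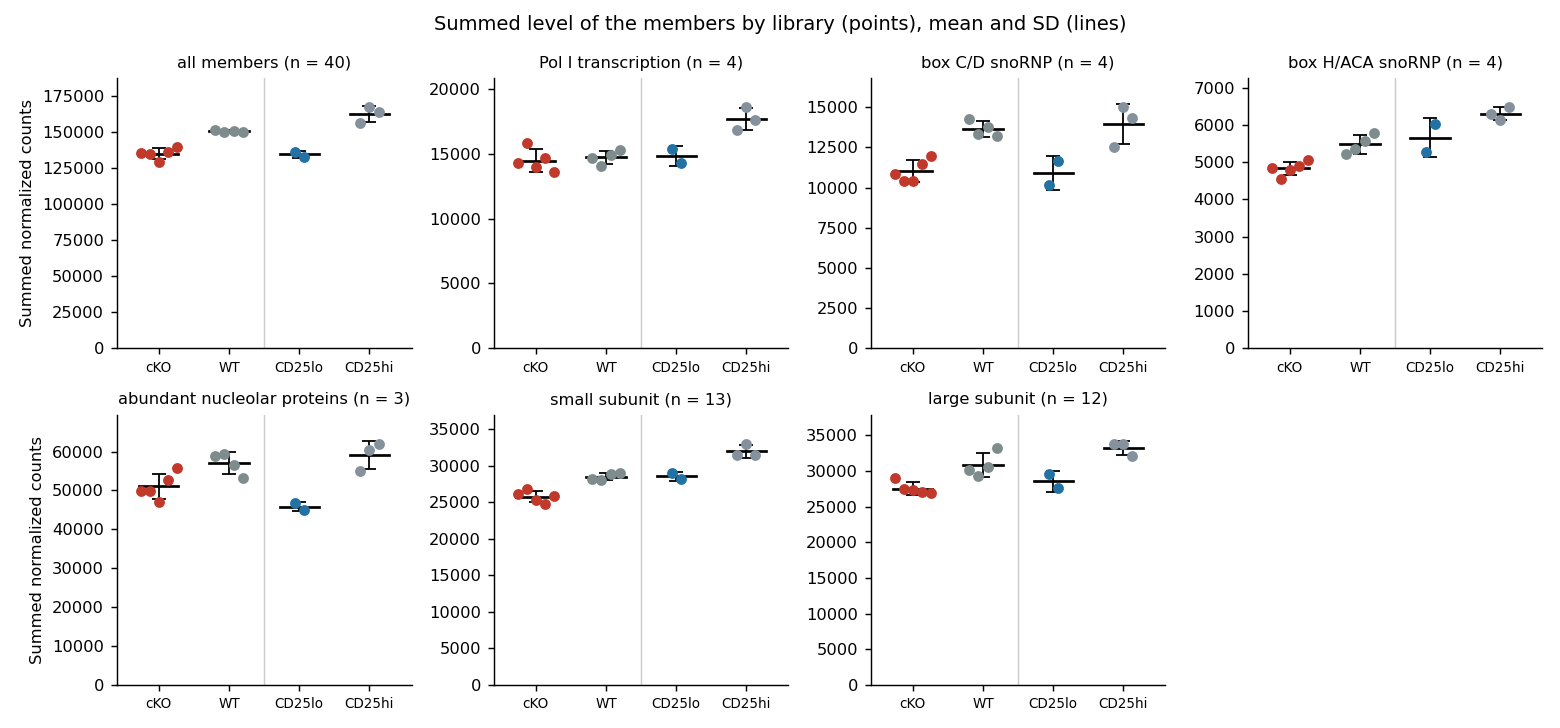
Summed normalized counts of all 40 members and of each of their 6 roles, per library (points), with the group mean and SD (lines). Over all members the 5 cKO libraries lie at 128905 to 139158 and the 4 WT libraries at 149513 to 151278, while the 2 CD25lo libraries lie at 132670 and 136058 and the 3 CD25hi libraries at 155947 to 166937.

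By role, the summed level of the box C/D genes differed most between cKO and WT Tregs, by -19.3%, with 10422 to 11950 normalized counts in cKO and 13231 to 14268 in WT libraries. The Pol I genes differed least in that comparison, by -1.79%, with 13627 to 15873 normalized counts in cKO and 14101 to 15287 in WT libraries. The box C/D, box H/ACA and small subunit sums of cKO and WT libraries did not overlap, and neither did those of the large subunit, whereas those of the Pol I genes and of the abundant nucleolar proteins did. Between CD25lo and CD25hi Tregs the differences were -16.3% for Pol I, -21.8% for box C/D, -10.1% for box H/ACA, -22.5% for the abundant nucleolar proteins, -10.8% for the small and -13.9% for the large subunit. These differences between roles were not tested.

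Gene by gene, 35 of the 40 had a log2 fold change below 0 between cKO and WT Tregs (87.5%), against 51.8% of the 6784 tested genes that are at least as abundant as the lowest member. The median of the members was -0.15, beside 0.05 over all 16241 genes tested and -0.01 over those 6784. Tested with limma across all genes, 3 members were lower in cKO Tregs (Nop56, Fbl and Npm1) and 0 were higher, where 1.48% of all tested genes were lower and 2.04% higher. Among genes at least as abundant as the lowest member, 3.20% were lower and 3.95% higher. At an unadjusted p under 0.05, 11 members were lower and 2 higher (Polr1c and Wdr12), against 6.56% and 9.57% of all tested genes. By edgeR 0 members were higher and 2 lower, and the share of all genes that edgeR called is not given here. By DESeq2 0 were higher and 7 lower, adding Dkc1, Nolc1, Tsr1 and Wdr43. DESeq2 called 2.19% of its 23417 genes lower, a set that includes genes below the limma filter, and its share among the abundant genes is not given. In 6 members (15.0%) every cKO library was below every WT library, which held for 3.62% of all tested genes and 6.57% of the abundant ones, and the reverse held for Polr1c alone (4.92% of all tested genes, 6.80% of the abundant ones).

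Between CD25lo and CD25hi Tregs, 33 of the 40 had a log2 fold change below 0 (82.5%), against 46.2% of the 6784 abundant genes. The median was -0.22, beside 0.00 over all genes tested and 0.02 over the abundant ones. By limma 2 members were lower in CD25lo Tregs (Nop16 and Ncl) and 0 were higher, where 1.01% of all tested genes were lower and 0.610% higher (1.70% and 1.14% of the abundant ones). At an unadjusted p under 0.05, 13 members were lower and 0 higher (6.95% and 6.51% of all tested genes). By edgeR with TMM scaling 0 were higher and 3 lower, adding Mybbp1a, and its share of all genes is not given here. By DESeq2 0 were higher and 7 lower (2.12% of its 23417 genes, which include genes below the limma filter). In 19 members (47.5%) both CD25lo libraries were below all 3 CD25hi libraries, which held for 11.6% of all tested genes and 15.6% of the abundant ones. Both CD25lo libraries were above all 3 CD25hi libraries for Wdr12 and Ddx18 (12.9% of all tested genes, 18.3% of the abundant ones).

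**Figure D2:**
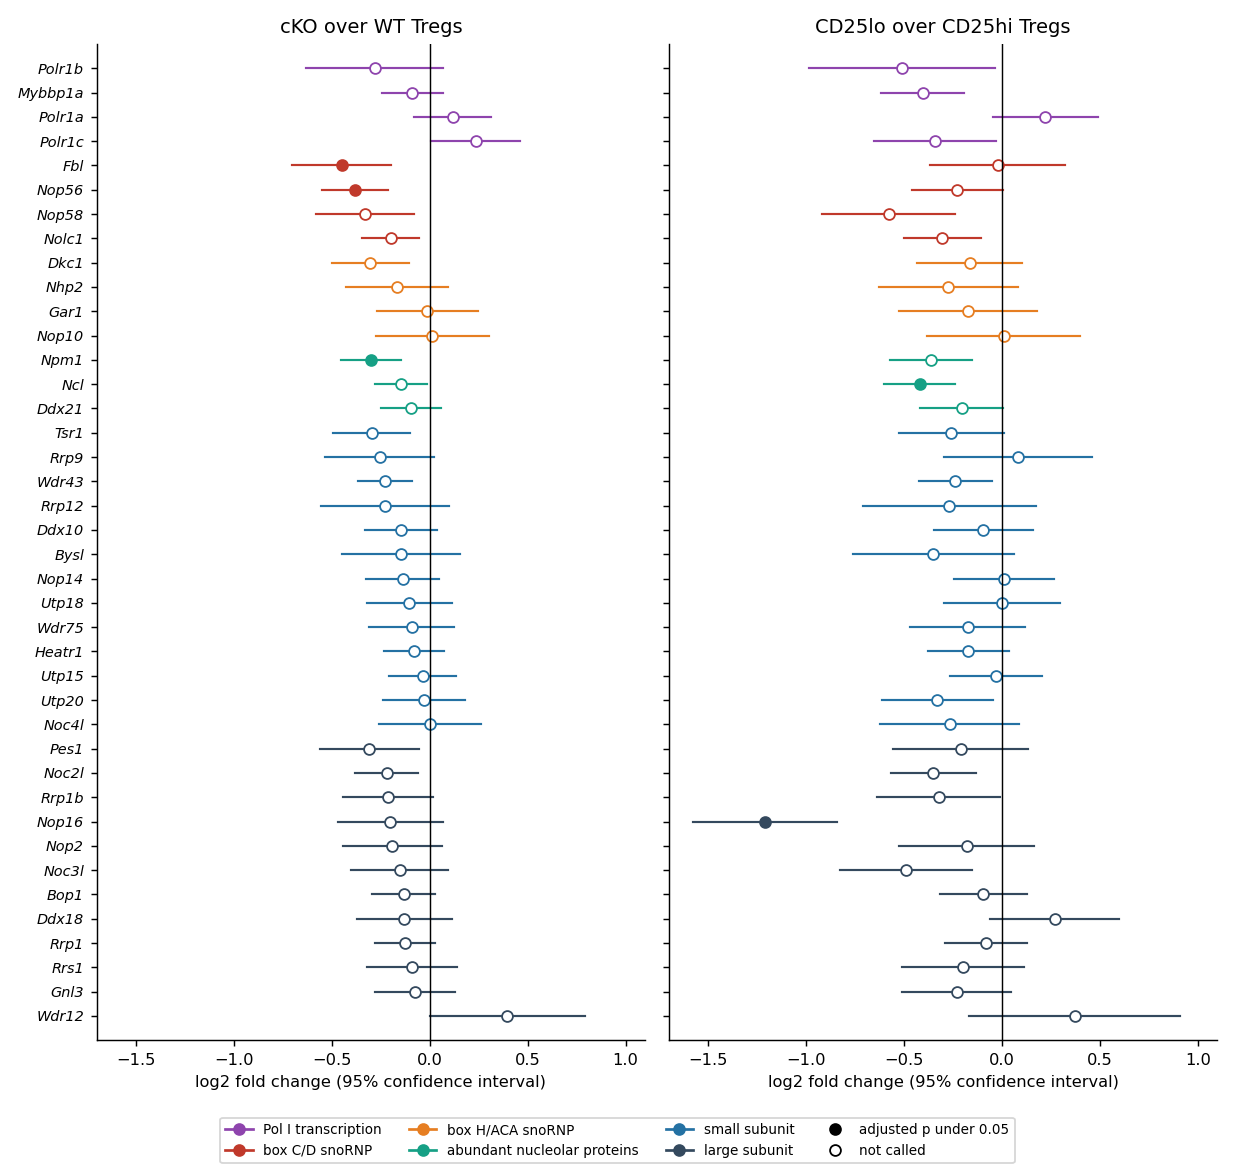
Log2 fold change of each member with its 95% confidence interval from limma, cKO over WT Tregs (left) and CD25lo over CD25hi Tregs (right), coloured by role, with filled points for an adjusted p under 0.05. Most points lie left of 0 in both panels (35 and 33 of 40), few are filled, and Nop16 stands far to the left in the CD25lo comparison at -1.21.

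**Figure D3:**
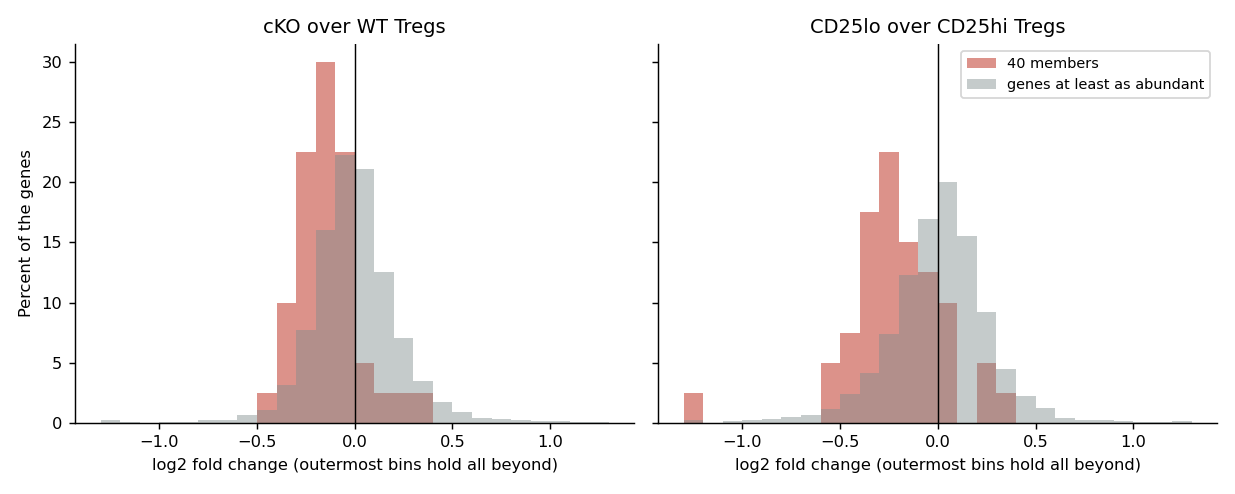
Distribution of log2 fold changes (bins of 0.1, percent of genes) of the 40 members and of the 6784 tested genes at least as abundant as the lowest member, cKO over WT Tregs (left) and CD25lo over CD25hi Tregs (right). The median of the members lies left of that of the other genes in both panels, with values of -0.15 against -0.01 and of -0.22 against 0.02.

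Of the 4 Pol I genes limma called none in either comparison. Polr1a, which encodes the largest Pol I subunit, had 3827, 4371, 3728, 3940 and 3726 normalized counts in cKO replicates 1 to 5, against 3382, 4082, 3768 and 3253 in WT replicates 1 to 4. It had 4161 and 4268 in CD25lo replicates 1 and 2, against 3247, 3296 and 4413 in CD25hi replicates 1 to 3. The groups overlapped in both comparisons, and the log2 fold changes of 0.12 (standard error 0.09, limma adjusted p = 0.594) and 0.22 (standard error 0.13, limma adjusted p = 0.474) did not pass. Polr1c, a subunit shared by Pol I and Pol III, had 1424, 1388, 1450, 1401 and 1647 normalized counts in cKO replicates 1 to 5, against 1204, 1067, 1328 and 1382 in WT replicates 1 to 4. It had 1138 and 1424 in CD25lo replicates 1 and 2, against 1445, 1604 and 1815 in CD25hi replicates 1 to 3. Each cKO value was thus above each WT value, and each CD25lo value below each CD25hi value. Neither difference passed limma (log2 fold change 0.24, adjusted p = 0.290, and -0.34, adjusted p = 0.309). The difference between the 2 effects, 0.58 with a standard error of 0.18, did not pass either (limma adjusted p = 0.143).

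Polr1b, the second-largest subunit, had 1432, 1465, 1391, 1297 and 1023 normalized counts in cKO replicates 1 to 5, against 1562, 1340, 1471 and 2091 in WT replicates 1 to 4. It had 1803 and 935 in CD25lo replicates 1 and 2, against 1957, 1668 and 1946 in CD25hi replicates 1 to 3. The CD25lo pair was split, with replicate 1 inside the CD25hi range and replicate 2 well below it, and the log2 fold change of -0.51 (limma adjusted p = 0.323) came to -0.99 (adjusted p = 0.0368) without CD25lo replicate 1 and to -0.04 (adjusted p = 0.987) without CD25lo replicate 2. Mybbp1a encodes a MYB-binding nucleolar protein that associates with Pol I and had the most reads of this role. It was at 7637, 8649, 7397, 8028 and 7231 normalized counts in cKO replicates 1 to 5, against 8549, 7613, 8367 and 8561 in WT replicates 1 to 4, which overlap (log2 fold change -0.09, limma adjusted p = 0.620). In CD25lo replicates 1 and 2 it was at 8255 and 7644, against 10204, 12029 and 9455 in CD25hi replicates 1 to 3, without overlap. The log2 fold change of -0.40 (95% confidence interval -0.62 to -0.19) fell just short in limma (adjusted p = 0.0504), was at adjusted p = 0.0499 with edgeR under TMM scaling and 0.0583 under the deposited size factors, and passed with DESeq2 (adjusted p = 0.0056). On leaving out a library, Mybbp1a ranged in limma adjusted p from 0.0386 without WT replicate 4 to 0.323 without CD25lo replicate 2.

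Of the 4 box C/D genes, Nop56 and Fbl were lower in cKO Tregs by limma. The core of this snoRNP includes NOP56 and NOP58, which hold the guide RNA, and fibrillarin (Fbl), the enzyme that methylates rRNA. Nop56 (chromosome 2, 130274430 to 130279313, plus strand, GRCm38) had 3474, 3117, 3266, 3725 and 3720 normalized counts in cKO replicates 1 to 5, against 4640, 4736, 4397 and 4222 in WT replicates 1 to 4. All 5 cKO libraries were below all 4 WT libraries, WT replicate 3 among them. Nop56 fell by 0.38 on the log2 scale (95% confidence interval -0.55 to -0.21, limma adjusted p = 0.0117). It passed without any single library (limma adjusted p = 0.0068 to 0.0385), and did not pass with a term for sex (log2 fold change -0.35, adjusted p = 0.63) or among bulk libraries of like immediate early level (cKO replicates 4 and 5 against WT replicates 1 to 3, -0.30, adjusted p = 0.314).

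Fbl (chromosome 7, 28169710 to 28179269, plus strand, GRCm38) had 739, 773, 735, 843 and 697 normalized counts in cKO replicates 1 to 5, against 910, 1105, 1119 and 1008 in WT replicates 1 to 4. The groups did not overlap, with cKO replicate 4 and WT replicate 1 the closest pair. Fbl fell by 0.45 on the log2 scale in cKO Tregs (95% confidence interval -0.70 to -0.20, limma adjusted p = 0.0467), close to the threshold. It was called in 3 of the 14 fits that left out a library (WT replicate 1, CD25hi replicate 1 or CD25hi replicate 2) and missed in the other 11, with adjusted p = 0.0349 to 0.121 over the 14, edgeR with TMM scaling gave adjusted p = 0.0530, and the term for sex gave -0.57 (adjusted p = 0.514). Nop58 had 2850, 2875, 2614, 3169 and 3174 normalized counts in cKO replicates 1 to 5, against 3890, 3314, 3923 and 3618 in WT replicates 1 to 4. These did not overlap either, but its log2 fold change of -0.33 (95% confidence interval -0.58 to -0.08) did not pass limma (adjusted p = 0.154). Nolc1, a chaperone that shuttles snoRNPs to the nucleolus, had 3750, 3659, 3808, 3743 and 4359 normalized counts in cKO replicates 1 to 5, against 4827, 4174, 4345 and 4383 in WT replicates 1 to 4. Only cKO replicate 5 reached into the WT range (log2 fold change -0.20, limma adjusted p = 0.133).

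In the CD25 comparison none of the 4 box C/D genes was called by limma, while Nolc1 and Nop58 were called by DESeq2 (adjusted p = 0.0284 and 0.0212). Nop58 had 2637 and 3592 normalized counts in CD25lo replicates 1 and 2, against 3588, 5873 and 4611 in CD25hi replicates 1 to 3. CD25lo replicate 2 met the lowest CD25hi library, and the log2 fold change was -0.58 (95% confidence interval -0.92 to -0.24, limma adjusted p = 0.0834). Single libraries moved it both ways, to -0.36 (limma adjusted p = 0.445) without CD25lo replicate 1, -0.40 (adjusted p = 0.239) without CD25hi replicate 2 and -0.76 (adjusted p = 0.0198) without CD25hi replicate 1. Nop56 had 2924 and 3292 in CD25lo replicates 1 and 2, against 3705, 3207 and 4050 in CD25hi replicates 1 to 3, with an overlap (log2 fold change -0.23, limma adjusted p = 0.380). Fbl had 869 and 933 in CD25lo replicates 1 and 2, against 766, 1027 and 972 in CD25hi replicates 1 to 3, so that the CD25lo values lay inside the CD25hi range (log2 fold change -0.02, limma adjusted p = 0.992). The difference between the 2 effects on Fbl, -0.43 with a standard error of 0.20, did not pass (limma adjusted p = 0.367). Nolc1 had 3741 and 3849 in CD25lo replicates 1 and 2, against 4491, 4889 and 4698 in CD25hi replicates 1 to 3, without overlap (log2 fold change -0.31, limma adjusted p = 0.116).

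In the box H/ACA snoRNP, Dkc1 encodes dyskerin, the pseudouridine synthase, and had the most reads. It had 2238, 2169, 2208, 1970 and 2312 normalized counts in cKO replicates 1 to 5, against 2730, 2286, 2631 and 3163 in WT replicates 1 to 4. Only WT replicate 2 fell within the cKO range. The log2 fold change of -0.30 (95% confidence interval -0.50 to -0.11) did not pass limma (adjusted p = 0.0870), and passed with DESeq2 (adjusted p = 0.0268). It was -0.38 (limma adjusted p = 0.0284) without WT replicate 2, -0.22 (adjusted p = 0.211) without WT replicate 4 and -0.27 (adjusted p = 0.867) with the term for sex. Dkc1 is X-linked, and its log2 fold change in the CD25 comparison, where all libraries were male, was -0.17 (2567 and 3163 normalized counts in CD25lo replicates 1 and 2, against 3037, 3368 and 3192 in CD25hi replicates 1 to 3, limma adjusted p = 0.609). That value was set by the split of the CD25lo pair, at -0.02 without CD25lo replicate 1 and -0.32 without CD25lo replicate 2. Its partners Gar1, Nhp2 and Nop10, small proteins of the same particle, were at -0.01, -0.17 and 0.01 on the log2 scale for cKO over WT and at -0.17, -0.28 and 0.01 for CD25lo over CD25hi, none called. Gar1 and Nop10 sat so close to 0 that some alternatives changed their sign.

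Nucleophosmin (Npm1), a chaperone that also shapes the outer nucleolus, was the third member called in cKO Tregs. Npm1 (chromosome 11, 33152287 to 33163206, minus strand, GRCm38) had 7835, 7463, 6741, 7973 and 8200 normalized counts in cKO replicates 1 to 5, against 9361, 9686, 9672 and 8813 in WT replicates 1 to 4. No cKO library reached the lowest WT library. Npm1 fell by 0.30 on the log2 scale (95% confidence interval -0.45 to -0.14, limma adjusted p = 0.0280). The call was lost on leaving out cKO replicate 1, 2 or 3 or WT replicate 1, 2 or 3 (limma adjusted p = 0.0541 to 0.0866). It was kept without cKO replicate 4 or 5 or WT replicate 4, and without any CD25 library, which cannot move this fold change. With the term for sex it was lost (-0.34, limma adjusted p = 0.532). In CD25lo replicates 1 and 2 Npm1 had 7575 and 7218, against 9804, 8323 and 10556 in CD25hi replicates 1 to 3, a log2 fold change of -0.36 without overlap that did not pass limma (adjusted p = 0.0780) and passed with DESeq2 (adjusted p = 0.0126).

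Nucleolin (Ncl), which binds nascent precursor rRNA, was called in the CD25 comparison. Ncl (chromosome 1, 86344719 to 86359400, minus strand, GRCm38) had 28119 and 26889 normalized counts in CD25lo replicates 1 and 2, against 34078, 37281 and 39201 in CD25hi replicates 1 to 3. Both CD25lo libraries were also below all 9 bulk libraries. Ncl fell by 0.42 on the log2 scale in CD25lo Tregs (95% confidence interval -0.60 to -0.24, limma adjusted p = 0.0172). The call was lost without CD25hi replicate 3 (limma adjusted p = 0.0691), CD25lo replicate 1 (log2 fold change -0.45) or CD25lo replicate 2 (-0.39). It was kept without CD25hi replicate 1 or 2, and without any bulk library, which cannot move this fold change. In cKO replicates 1 to 5 Ncl had 31138, 31464, 30027, 33325 and 35912 normalized counts, against 36873, 37533, 35589 and 33346 in WT replicates 1 to 4, with an overlap (log2 fold change -0.15, limma adjusted p = 0.248). The difference between the 2 effects on Ncl was 0.27 with a standard error of 0.11 (limma adjusted p = 0.257). Ddx21, an RNA helicase that acts in rRNA transcription and processing, came to -0.10 in cKO and to -0.21 in CD25lo Tregs on the log2 scale, neither called.

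**Figure D4:**
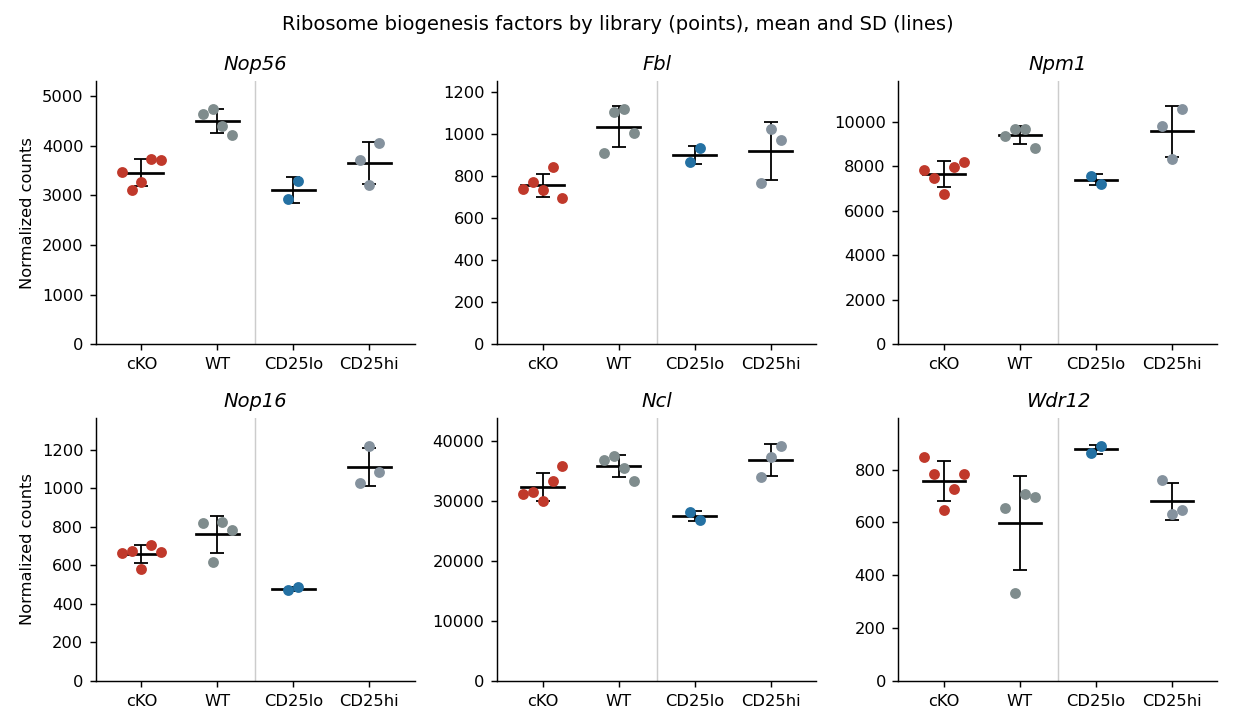
Normalized counts per library (points) with the group mean and SD (lines) for the 5 called members and for Wdr12, the member with the most positive log2 fold change in both comparisons. Nop56, Fbl and Npm1 separate the 5 cKO from the 4 WT libraries, Nop16 and Ncl separate the 2 CD25lo from the 3 CD25hi libraries, and for Wdr12 WT replicate 2 lies alone at 334.

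Of the 13 small subunit factors, 12 had a log2 fold change below 0 between cKO and WT Tregs, the median was -0.14 and limma called none. Wdr43, a scaffold protein of the first assembly steps and the factor of this role with the most reads, had 4103, 4246, 4037, 4143 and 4533 normalized counts in cKO replicates 1 to 5, against 5047, 5283, 4521 and 4900 in WT replicates 1 to 4. The groups met only at cKO replicate 5 and WT replicate 3. The log2 fold change of -0.23 (95% confidence interval -0.37 to -0.09) missed the threshold in limma (adjusted p = 0.0624), and passed with DESeq2 (adjusted p = 0.0071). It was -0.27 (limma adjusted p = 0.0442) without WT replicate 3, -0.19 (adjusted p = 0.160) without WT replicate 2 and -0.10 (adjusted p = 0.984) with the term for sex. In CD25lo replicates 1 and 2 Wdr43 had 4586 and 4211, against 5372, 4950 and 5249 in CD25hi replicates 1 to 3, without overlap (log2 fold change -0.24, limma adjusted p = 0.220).

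Tsr1, a GTPase-like factor of late small subunit maturation, had 2033, 1874, 1955, 1628 and 1744 normalized counts in cKO replicates 1 to 5, against 2245, 2584, 2128 and 2117 in WT replicates 1 to 4, without overlap. Its log2 fold change of -0.30 did not pass limma (adjusted p = 0.0977) and passed with DESeq2 (adjusted p = 0.0387). The other members of this role ranged in log2 fold change between cKO and WT Tregs from -0.26 for Rrp9, a U3 snoRNP protein, through -0.23 for Rrp12, an export factor, to 0.00 for Noc4l, a partner of NOP14. Heatr1, Wdr75 and Utp15, which bind the start of the precursor rRNA, had -0.08, -0.09 and -0.04, Utp18 had -0.10 and Utp20, a very large scaffold, had -0.03. Nop14, the helicase Ddx10 and the late factor Bysl had -0.14, -0.15 and -0.15. In CD25lo Tregs the role had a median of -0.18 with 10 of 13 below 0 and none called. In that comparison Bysl (-0.35), Utp20 (-0.33), Rrp12 (-0.27) and Noc4l (-0.27) had the most negative log2 fold changes, and Rrp9 (0.08), Nop14 (0.01) and Utp18 (0.00) were at or above 0. This order rests on single libraries, since Rrp12 came to 0.00 without CD25hi replicate 2 and -0.02 without CD25lo replicate 2, Noc4l to -0.10 without CD25lo replicate 1, and Utp20 to -0.12 without CD25lo replicate 2. In 6 of the 13 both CD25lo libraries were below all 3 CD25hi libraries, against 15.6% of the abundant genes.

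Of the 12 large subunit factors, Nop16 was the 1 called in the CD25 comparison. NOP16 is a small nucleolar protein whose yeast counterpart acts in early assembly of the large subunit. Nop16 (chromosome 13, 54584185 to 54590090, minus strand, GRCm38) had 471 and 486 normalized counts in CD25lo replicates 1 and 2, against 1026, 1219 and 1085 in CD25hi replicates 1 to 3. It averaged 478 ± 10.3 in CD25lo and 1110 ± 98.8 in CD25hi libraries (SD, n = 2 and 3), and the CD25lo values were the lowest of all 14 libraries and the CD25hi values the highest. Nop16 fell by 1.21 on the log2 scale (95% confidence interval -1.58 to -0.84, limma adjusted p = 0.0014), and passed without any single library (adjusted p = 0.00048 to 0.0177). In cKO replicates 1 to 5 it had 665, 672, 583, 703 and 667, against 818, 616, 824 and 781 in WT replicates 1 to 4. Those groups overlapped only through WT replicate 2, and the log2 fold change of -0.20 (95% confidence interval -0.47 to 0.07) did not pass (limma adjusted p = 0.480). The difference between the 2 effects was 1.01 with a standard error of 0.22 (limma adjusted p = 0.0330). Nop16 was the only member called in that test (0.671% of all tested genes were called in this direction and 0.363% in the other). At an unadjusted p under 0.05, 4 members passed in this direction (Mybbp1a, Ncl, Nop16 and Polr1c) and 0 in the other, against 8.08% and 5.68% of all tested genes. That call did not hold on leaving out cKO replicate 1, 4 or 5, CD25hi replicate 2 or 3 or either CD25lo library (limma adjusted p = 0.0553 to 0.0787).

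PES1, BOP1 and WDR12 form the PeBoW complex, which is needed to cut the internal spacer of the large subunit precursor, and their mRNAs did not move as 1 unit. Pes1 averaged 1647 ± 85.3 normalized counts in cKO and 2084 ± 536.1 in WT libraries (SD, n = 5 and 4), a log2 fold change of -0.31 (limma adjusted p = 0.196). WT replicate 4, at 2846 against 1593 to 1999 in the other WT libraries, set much of it, and without that library it was -0.15 (limma adjusted p = 0.458). Bop1 had -0.13. Wdr12 had 849, 782, 647, 725 and 784 normalized counts in cKO replicates 1 to 5, against 654, 334, 706 and 698 in WT replicates 1 to 4. WT replicate 2 set most of that difference, since the log2 fold change of 0.40 (95% confidence interval 0.00 to 0.79, limma adjusted p = 0.310) was 0.14 without it (adjusted p = 0.708). In CD25lo replicates 1 and 2 Wdr12 had 864 and 889, against 761, 633 and 647 in CD25hi replicates 1 to 3, without overlap (log2 fold change 0.37, limma adjusted p = 0.563). In CD25lo Tregs Pes1 and Bop1 had -0.21 and -0.10, neither called.

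Rrp1, which had the most reads of the large subunit factors, had 6873, 6646, 6636, 6780 and 7104 normalized counts in cKO replicates 1 to 5, against 7215, 7591, 7400 and 7492 in WT replicates 1 to 4. The groups did not overlap, yet the step was small, with a log2 fold change of -0.13 (95% confidence interval -0.28 to 0.03, limma adjusted p = 0.425). It had 7521 and 5799 in CD25lo replicates 1 and 2, against 7096, 7631 and 6307 in CD25hi replicates 1 to 3, with an overlap (-0.08, limma adjusted p = 0.772). Ddx18, an RNA helicase, had 989, 1054, 947, 892 and 906 normalized counts in cKO replicates 1 to 5, against 973, 1060, 1107 and 1044 in WT replicates 1 to 4, with an overlap (log2 fold change -0.13, limma adjusted p = 0.646). It had 1015 and 1060 in CD25lo replicates 1 and 2, against 950, 699 and 960 in CD25hi replicates 1 to 3, above them without overlap (0.27, limma adjusted p = 0.486). Noc2l and Noc3l, which travel with the pre-60S particle, were at -0.22 and -0.15 for cKO over WT and at -0.35 and -0.49 for CD25lo over CD25hi (log2), none of them called by limma. Noc2l had 6886 and 5809 normalized counts in CD25lo replicates 1 and 2, against 8540, 8099 and 7582 in CD25hi replicates 1 to 3, without overlap, and passed there with DESeq2 (adjusted p = 0.0326). The rRNA methyltransferase gene Nop2 (-0.19 and -0.18), Rrp1b (-0.21 and -0.32), the 5S particle factor Rrs1 (-0.09 and -0.20) and Gnl3, which encodes the GTPase nucleostemin (-0.07 and -0.23), were not called in either comparison.

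The 2 comparisons share no library, and 31 of the 40 members were below 0 in both. Since 35 were below 0 in cKO and 33 in CD25lo Tregs, most were bound to be below 0 in both. The joint count thus adds little to those 2 counts. Of the 6784 abundant genes 51.8% were below 0 in cKO Tregs, 46.2% in CD25lo Tregs and 25.4% in both. Wdr12, Polr1a and Nop10 were above 0 in both (Nop10 by 0.01, which turned below 0 in the CD25 comparison under TMM scaling), 4 members were below 0 in cKO only and 2 in CD25lo only. Across the 40 genes, which are not independent replicates, the log2 fold changes had a Pearson correlation of 0.36 and a Spearman correlation of 0.31 (0.41 by Pearson over the 39 genes other than Nop16). No member was called by limma in both comparisons.

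**Figure D5:**
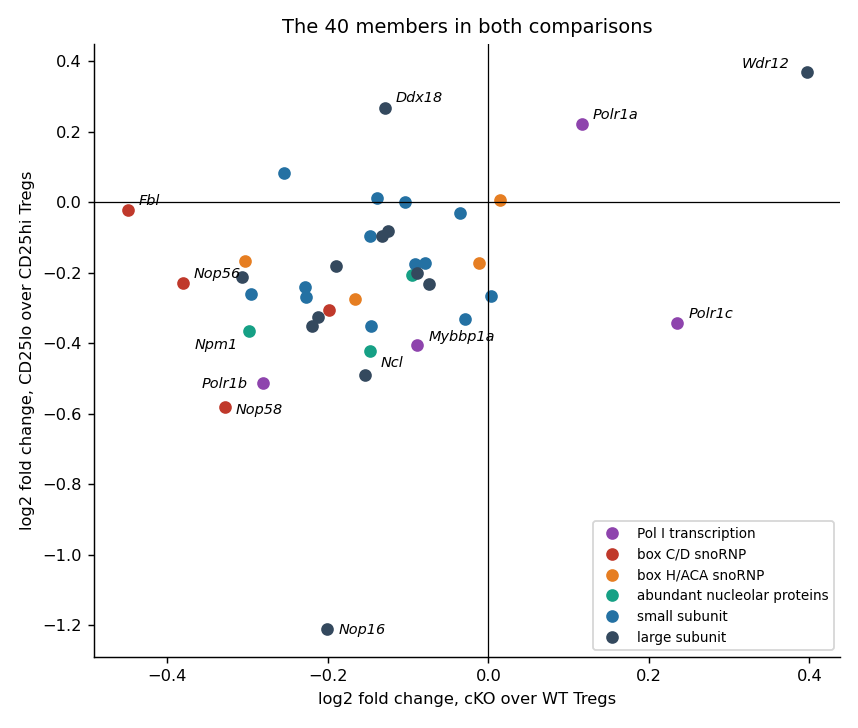
Log2 fold change of each member between cKO and WT Tregs (horizontal) against that between CD25lo and CD25hi Tregs (vertical), coloured by role. Of the 40 points 31 lie below 0 on both axes, Wdr12 and Polr1a lie above 0 on both axes, Polr1c lies right of 0 but below it, and Nop16 lies lowest.

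Of 134 other ribosome biogenesis genes tested, 95 had a log2 fold change below 0 between cKO and WT Tregs (70.9%, median -0.09). By limma 4 of the 134 were lower and 2 higher, where 1.48% of all tested genes were lower and 2.04% higher. Among the abundant genes 3.20% were lower and 3.95% higher, but the 134 were not chosen by abundance. Utp14a and Aatf, 2 further small subunit factors, were lower in cKO Tregs. Aatf averaged 1089 ± 39.7 normalized counts in cKO and 1609 ± 233 in WT libraries (log2 fold change -0.55, limma adjusted p = 0.0048). Utp14a averaged 1986 ± 86.3 in cKO and 2566 ± 96.6 in WT libraries (-0.37, adjusted p = 0.0067, SD, n = 5 and 4, limma). Utp14a is X-linked, and its lowest WT value of 2423 was above its highest cKO value of 2116. WT replicate 3 is the only female WT library, and the part of sex in this difference was not tested. Among large subunit factors, the giant ATPase gene Mdn1 (-0.34, limma adjusted p = 0.0203) and the methyltransferase gene Ftsj3 (-0.32, adjusted p = 0.0431) were lower, and the helicase gene Ddx24 (0.27, adjusted p = 0.0132) was higher. Gnl3l, a relative of Gnl3 named here after its value was seen, was also higher (0.41, limma adjusted p = 0.0481). None of the 12 other Pol I genes, 21 nuclease and exosome genes or 9 snoRNP assembly genes was called by limma between cKO and WT Tregs. In CD25lo Tregs 90 of the 134 were below 0 (67.2%, median -0.09) and limma called none in either direction (1.01% lower and 0.610% higher over all tested genes). The 9 snoRNP assembly genes were all below 0 there, with a median of -0.40, beside -0.21 in cKO Tregs.

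Myc, whose product activates ribosome biogenesis genes through the E-box CACGTG, averaged 4741 ± 379 normalized counts in cKO and 6913 ± 718 in WT libraries (SD, n = 5 and 4). It averaged 5648 ± 133 in CD25lo and 8379 ± 708 in CD25hi libraries (SD, n = 2 and 3). It was lower in both comparisons (log2 fold change -0.54, limma adjusted p = 0.00076, and -0.57, adjusted p = 0.0116). By limma 2 of the 9 tested genes of the MYC network were lower in each comparison, where 1.48% and 1.01% of all tested genes were lower. The others besides Myc were its antagonists, Mxd1 in cKO Tregs (-0.74, limma adjusted p = 0.0499) and Mxd4 in CD25lo Tregs (-0.41, limma adjusted p = 0.0248). Mxd1 was just under the threshold, and its groups overlapped (2922 to 4998 normalized counts in cKO, 3453 to 8769 in WT libraries). Those of Mxd4 did not overlap. Alternatives for these calls are not given here. Of 20 proliferation markers limma called none in either comparison, with a median of 0.01 in cKO and -0.38 in CD25lo Tregs.

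The E-box was looked for in promoter windows from 250 bases before to 50 after each annotated start (RefSeq, GRCm38.p6). Its letters read the same on both strands. Of 35 members with a window, 7 held it (20%), namely Mybbp1a, Nop2, Pes1, Tsr1, Utp18, Utp20 and Wdr43. The share was 11.5% of the 10700 tested genes with a window and 7.15% of all 32851 windows. The windows of Nop2 (chr6:125131811-125131840, plus strand) and Utp18 (chr11:93885769-93885798, minus strand) are shown as examples that lie before the start, at -60 and -20, with the E-box in capitals. A match is a description of the letters and does not show that MYC binds there.
Nop2: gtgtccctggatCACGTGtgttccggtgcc
Utp18: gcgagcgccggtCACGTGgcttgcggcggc

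Among the 5 members called by limma, the windows of Nop56, Nop16 and Ncl did not hold these letters, and Fbl and Npm1 had no window here.

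The miRNAs deleted in cKO Tregs share a seed, bases 2 to 8, in capitals here as RefSeq (GRCm38.p6) gives the mature forms. They come from chromosome 14 (miR-15a and miR-16) and chromosome 3 (miR-15b and miR-16).
miR-15a-5p: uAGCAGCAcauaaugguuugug
miR-15b-5p: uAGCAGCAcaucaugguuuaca
miR-16-5p: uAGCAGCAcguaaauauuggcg

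A match to this seed in an annotated 3′ UTR (the letters TGCTGCT on the sense strand, or GCTGCTA, which together make an 8-base match, in the longest UTR of each gene in GENCODE vM21) was present in 4 of the 40 members (10%), against 27.8% of 12731 tested genes. The members' UTRs were also shorter, with a median of 512 bases against 1140. The 4 were Nop56, Ncl, Polr1a and Wdr12. In Nop56, which was lower in cKO Tregs, the UTR holds a 7-base match (chr2:130278839-130278867, plus strand) and an 8-base match (chr2:130279146-130279175, plus strand), shown because Nop56 was the member with the smallest adjusted p in that comparison. Matches are in capitals and say nothing of whether the miRNA acts on them.
Nop56 first: tgggagctgtgGCTGCTAacaattgtaag
Nop56 second: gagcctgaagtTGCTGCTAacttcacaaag

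The 2 matches of Ncl lie 3825 and 4242 bases into the longest annotated UTR, those of Polr1a at 3205 and 3932 and that of Wdr12 at 1389. Between cKO and WT Tregs the 4 genes with a match lay on both sides of 0, with log2 fold changes of -0.38 for Nop56, -0.15 for Ncl, 0.12 for Polr1a and 0.40 for Wdr12 (0.14 without WT replicate 2), of which limma called Nop56 alone.

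Several members carry snoRNA genes within their own bodies, on the same strand. In GENCODE vM21 this was so for 7 of the 40 (17.5%), against 1.66% of 12653 protein-coding genes tested, and the 7 held 21 snoRNA genes. They were Nop56 with 5, Nop58 with 4, Ncl, Wdr43 and Gnl3 with 3 each, Tsr1 with 2 and Dkc1 with 1. All 7 lay below 0 in both comparisons, as did 31 of all 40 members and 25.4% of the 6784 abundant genes. The 7 ranged from -0.38 to -0.07 for cKO over WT and from -0.58 to -0.17 for CD25lo over CD25hi (log2). Exons of 17 members also share bases with a gene on the opposite strand, such as Nop56 with Idh3b, and the sources used here do not say whether reads were counted by strand, so reads of such pairs may not be told apart.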

How the data were processed

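Foxp3+ Tregs were profiled by single-end 50 bp RNA-seq (cKO n = 5, WT n = 4, CD25lo n = 2, CD25hi n = 3). According to the study's methods and the submitters' processing notes, the authors aligned reads with STAR 2.7.2b to Ensembl GRCm38.78 and normalized them with DESeq2 1.24.0. The counting program and its strand setting are not given in the sources used here. The deposited signal values are normalized counts, in which the authors divided reads per gene by a size factor of the library and rounded them. Dividing by the smallest step gave whole reads for at least 99.9959% of values in each library (tolerance 0.055 normalized counts). These reads, 30055573 to 35226685 per library, entered the edgeR, DESeq2 and voom fits. The 14 stabilized per-sample columns and the authors' comparison columns (fold changes, p-values and false discovery rates) were not used. Of 55536 genes listed, 7173 had no values.

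The main test was limma 3.58.1 (limma-trend, R 4.3.3) on log2(normalized count + 1), with a mean per group over all 14 libraries. Genes needed at least 10 normalized counts in at least 2 libraries (16241 genes), and p-values were adjusted over all of them by the Benjamini-Hochberg method with a threshold of 0.05. Fold changes are on this log2 scale. The cKO effect minus the CD25lo effect was tested in the same fit. Alternatives were edgeR 4.0.16 with TMM scaling and with the deposited size factors, DESeq2 1.42.0, voom, TMM scaling of the values, no filter, a mean of at least 100, pseudocounts of 0.5 and 5, only the groups compared, a replicate block, a term for sex, a term for immediate early genes and leaving out each library. A fit with only cKO replicates 4 and 5 and WT replicates 1 to 3 among the bulk libraries, which are alike in immediate early genes, was chosen after seeing the data. The scripts were tested on simulated data.

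The members and gene lists were chosen with earlier results of these data known. Values in every library were given for members called by limma in either comparison or in the difference between them, for the 3 most positive and 3 most negative log2 fold changes of each comparison and for the member of each role with the most reads. From each list of other ribosome biogenesis genes at most 3 called genes were named. Promoters and miRNAs are from RefSeq (GRCm38.p6), and 3′ UTRs and gene positions from GENCODE vM21 (GRCm38).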

Additional observations from a re-analysis of the deposited data

Results flagged for a closer look

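In 6 of the 80 member-by-group sets of 4 or 5 libraries, 1 library stood apart from the rest of its group, where chance alone marks about 1 in 20. Polr1c in cKO replicate 5 was at 1646.6 normalized counts, against 1450.2 in the next cKO library. Nolc1 in the same library was at 4359.1, against 3807.6 in the next. Rrp9 in cKO replicate 2 was at 1465.7, against 1227.9 in the next. Pes1 in cKO replicate 4 was at 1797.4, against 1622.9 in the next. Noc2l in WT replicate 4 was at 8064.5, against 6724.6 in the next WT library. Wdr12 in WT replicate 2 was at 334.2, against 653.9 in the next lowest WT library.

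For Nop16 the cKO effect and the CD25lo effect differed by 1.0094 on the log2 scale (cKO effect minus CD25lo effect, standard error 0.22, limma adjusted p = 0.0330). Its effect was -0.20 in cKO and -1.21 in CD25lo Tregs. The replicate block, the term for sex and the bulk libraries of like immediate early level gave 1.01, 0.88 and 1.09 for this difference, none of which passed (limma adjusted p = 0.159, 0.321 and 0.102).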

How the results depend on the processing

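The number of members lower in cKO Tregs, 3 in limma, was 7 with DESeq2, 6 with the term for immediate early genes, 1 with no filter, 1 with the replicate block, 0 with the term for sex, 0 among bulk libraries of like immediate early level and 1 to 3 on leaving out a library (1 without cKO replicate 1, 2 or 3). The number lower in CD25lo Tregs, 2 in limma, was 7 with DESeq2, 4 with the term for immediate early genes, 1 with the replicate block and 1 to 4 on leaving out a library (4 without WT replicate 4, 1 without CD25lo replicate 2). The 1 member called for the difference between effects came to 0 with the replicate block, with the term for sex and among bulk libraries of like immediate early level, and to 0 or 1 on leaving out a library. The members' median of that difference, 0.07, was 0.0317 without CD25lo replicate 2 and up to 0.10 without another library. Shares of all tested genes called are given above for the main limma fit and DESeq2 only. Under the other settings, a change in the members' count cannot be told from a change over all genes. The members' medians stayed below 0 in both comparisons under every alternative run, and no member was called higher in either.

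The replicate numbers are not known to pair the libraries. Deviations of same-numbered libraries correlated at -0.20, -0.27, -0.08 and -0.41 for cKO and WT and at 0.17 and -0.05 for CD25lo and CD25hi. The block left Nop56 called in cKO and Nop16 called in CD25lo Tregs.

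Of 2294 member values under alternatives, many could not change. Leaving out a library of the other comparison, changing the filter or fitting only the groups compared keeps the fold change as it was. Among the 2294, 49 changed sign, all of members within 0.0951 of 0. For cKO over WT these were Gar1 (0.014 with the replicate block, 0.066 among like bulk libraries), Nop10 (-0.14 with the term for sex), Utp15 (0.0207) and Heatr1 (0.0111) with that term, and Noc4l (-0.0107 with edgeR TMM, -0.0179 with edgeR size factors, -0.0176 with DESeq2, -0.0217 with the immediate early term, -0.16 with the term for sex). For CD25lo over CD25hi they were Fbl (0.0058 with the block), Nop10 (-0.0123 voom, -0.0010 TMM scaling, -0.0127 immediate early term), Nop14 (-0.0087 edgeR TMM, -0.0023 voom) and Utp18 (-0.0098 and -0.0013 edgeR TMM and size factors, -0.0014 DESeq2, -0.0101 voom, -0.0074 TMM scaling, -0.0118 immediate early term). On leaving out a library, cKO over WT ranged from -0.0647 to 0.014 for Gar1, -0.0669 to 0.0973 for Nop10, -0.0583 to 0.0044 for Utp15, -0.0652 to 0.033 for Utp20 and -0.15 to 0.0794 for Noc4l. CD25lo over CD25hi ranged from -0.15 to 0.0615 for Fbl, -0.19 to 0.20 for Nop10, -0.10 to 0.11 for Nop14, -0.0439 to 0.21 for Rrp9, -0.0879 to 0.0319 for Utp15, -0.18 to 0.18 for Utp18, -0.27 to 0.11 for Rrp1 and -0.28 to 0.0876 for Bop1. With 2 CD25lo libraries, leaving out either leaves 1, which is then assumed to vary like the other groups. The causes of these changes were not tested.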
